A study of Mus musculus with 16 samples.

Results

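T cells and natural killer (NK) cells in fat were followed through 10 marker genes, Cd3d, Cd3e, Cd3g, Cd4, Cd8a, Cd8b1, Foxp3, Gata3, Il2rb and Nkg7. The members were picked by gene name, not by their values, from the 22911 gene symbols that the RefSeq accessions of the array's probes reached. All 10 had a probe, and the brightest probe stood for the gene. In BAT taken from the KO mice, Cd3d, Cd3g, Gata3, Il2rb and Nkg7 were higher than in littermate controls, with 4 arrays in each group. Cd3d and Nkg7, measured well above background on every BAT array, were 2.55-fold and 3.83-fold higher, while Cd3g, Gata3 and Il2rb were well above background on 1, 2 and 1 of the 4 controls, so that their folds are taken largely against background. Cd3e, Cd4 and Cd8b1 did not pass the test there, and no member passed it in gWAT. Cd8a and Foxp3 were too dim to be tested. Only 1 BAT control shared a slide with the BAT KO arrays. In a model with slide as a block, the BAT calls of Cd3d and Cd3g were lost. Cd4 was there lower by 0.92 against that 1 control, which held the highest Cd4 level of the 4 controls by far.

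A T cell recognises antigen through its T cell receptor, which signals through the CD3 chains encoded by Cd3d, Cd3e and Cd3g. CD4 and CD8 are the coreceptors that bind the presenting MHC molecule, and they divide helper from cytotoxic T cells. NK cells carry no T cell receptor but share the granule machinery and the IL-15 receptor with cytotoxic T cells. Adipose tissue holds resident populations of all these cells, and those of lean visceral fat include Foxp3-expressing regulatory T cells.

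Adipo-Pgam1 KO mice carried floxed Pgam1 and Adipoq-Cre, in which the adiponectin promoter drives Cre in adipocytes and not in lymphocytes. Controls were littermates with the floxed alleles and no Cre. The mice were C57BL/6NCrSlc males fed chow, and all were 16 weeks of age except replicate 4 of the KO group in both tissues, which was 14 weeks of age. Brown adipose tissue (BAT) and gonadal white adipose tissue (gWAT) gave 4 arrays per genotype, 16 in all, on a 1-colour Agilent whole-genome array. A level is the log2 of a probe's signal over the 75th percentile of all probes on its array, so that 0 marks a probe at that percentile and a difference of 1 is a doubling of signal.

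The targeted gene was measured first. Pgam1 stood at 7.82 to 8.07 in BAT controls and at 6.03 to 6.43 in the BAT of KO mice. In gWAT the order was the opposite, with 5.07 to 5.67 in controls and 5.95 to 6.50 on the arrays labelled Adipo-Pgam1 KO, so every gWAT direction given here rests on a label that this gene goes against. Ucp1, the uncoupling protein of brown fat, had a median of 9.92 in BAT controls and was well above background on no gWAT control array, at -6.34 to -4.95. On the gWAT arrays labelled KO it read -3.54 to -0.15 and was well above background on 3 of 4, and 3 of 4 brown adipocyte markers tested there were higher. The arrays lay on 3 slides. BAT controls 1 to 3 were on the first, BAT control 4, all BAT KO arrays and gWAT controls 1 to 3 on the second, and gWAT control 4 with all gWAT arrays labelled KO on the third, which was scanned on another day. Differences within the slide that holds both groups are therefore given beside the members' values.

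Promoter sequences are shown for Cd3d, Cd3g and Cd3e, since these neighbours on chromosome 9 did not move alike, and for Nkg7, a member well above background on all 16 arrays. RefSeq starts of Cd3g and Cd3d lie 1355 bases apart on opposite strands and point away from each other, and the start of Cd3e lies 27825 bases from that of Cd3d. Windows were present for 7 of the 10 members, Cd3d, Cd3e, Cd3g, Cd8a, Foxp3, Gata3 and Nkg7. Each sequence holds the 250 bases before the RefSeq start in GRCm38.p6, written along the gene's own strand, at chr9:44981536-44981785 for Cd3d (plus strand), chr9:44980432-44980681 for Cd3g (minus strand), chr9:45009612-45009861 for Cd3e (minus strand) and chr7:43436888-43437137 for Nkg7 (plus strand). Capitals mark matches on either strand to 4 short motifs. The Ets motif was searched for as AGGAAG. For Runx factors, which shape T cell fate, the letters were TGTGGT. The GATA motif was taken in the form AGATAA. An E-box, which basic helix-loop-helix factors bind, was read as CAGGTG.
Cd3d: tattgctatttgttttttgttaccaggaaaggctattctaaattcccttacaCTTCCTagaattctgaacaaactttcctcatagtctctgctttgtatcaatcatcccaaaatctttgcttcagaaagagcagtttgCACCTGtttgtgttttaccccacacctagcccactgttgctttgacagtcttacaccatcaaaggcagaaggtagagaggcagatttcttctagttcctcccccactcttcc
Cd3g: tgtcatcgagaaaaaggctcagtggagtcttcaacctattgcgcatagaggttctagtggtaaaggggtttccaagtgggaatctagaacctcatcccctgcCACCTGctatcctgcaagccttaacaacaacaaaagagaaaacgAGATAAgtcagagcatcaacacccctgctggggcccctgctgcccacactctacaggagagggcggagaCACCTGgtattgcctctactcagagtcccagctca
Cd3e: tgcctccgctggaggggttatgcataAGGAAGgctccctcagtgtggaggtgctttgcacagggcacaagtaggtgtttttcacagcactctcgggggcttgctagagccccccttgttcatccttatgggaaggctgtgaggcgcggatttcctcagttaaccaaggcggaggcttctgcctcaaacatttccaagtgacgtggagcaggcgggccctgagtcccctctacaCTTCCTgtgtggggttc
Nkg7: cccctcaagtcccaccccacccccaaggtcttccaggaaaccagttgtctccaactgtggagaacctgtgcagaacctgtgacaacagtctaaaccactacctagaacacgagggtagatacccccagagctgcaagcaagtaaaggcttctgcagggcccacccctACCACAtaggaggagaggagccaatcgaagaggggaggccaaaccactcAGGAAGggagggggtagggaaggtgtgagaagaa

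The Cd3d window held 1 Ets match and 1 E-box match. The Cd3g window held 1 GATA match and 2 E-box matches, the Cd3e window 2 Ets matches, and the Nkg7 window 1 Ets match and 1 Runx match, with no overlap between matches. Of 32536 different RefSeq windows of the same length, 29.6% held the Ets letters, 14.0% the Runx letters, 9.97% the GATA letters and 17.3% the E-box letters. The matches describe these letters only.

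The first question was whether T and NK cell transcripts differ in BAT that lacks Pgam1 in adipocytes. Of the 10 members, 8 had a probe that all 4 arrays of either group measured well above background, and these were tested with limma over 14280 genes. Of these, 5 passed an adjusted p of 0.05 and all 5 were higher, where 27.5% of all genes tested were higher past the threshold and 34.0% were lower. The groups did not overlap for 6 of the 8, these 5 and Cd4, against 57.1% of all genes. For Cd4 the KO arrays lay below the controls. The members' median log2 difference was 1.51 and that of all genes -0.08. Cd3g, Gata3 and Il2rb entered the test only through the KO arrays, since they were well above background on 1, 2 and 1 of the 4 control arrays, so the counts of 5 and 6 are a description. Among the 5 members measured on all 8 BAT arrays, Cd3d and Nkg7 were past the threshold and Cd3e, Cd4 and Cd8b1 were not. In whole tissue, more cells of a type and more RNA per cell cannot be told apart, nor can fewer cells and less RNA per cell.

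**Figure D1:**
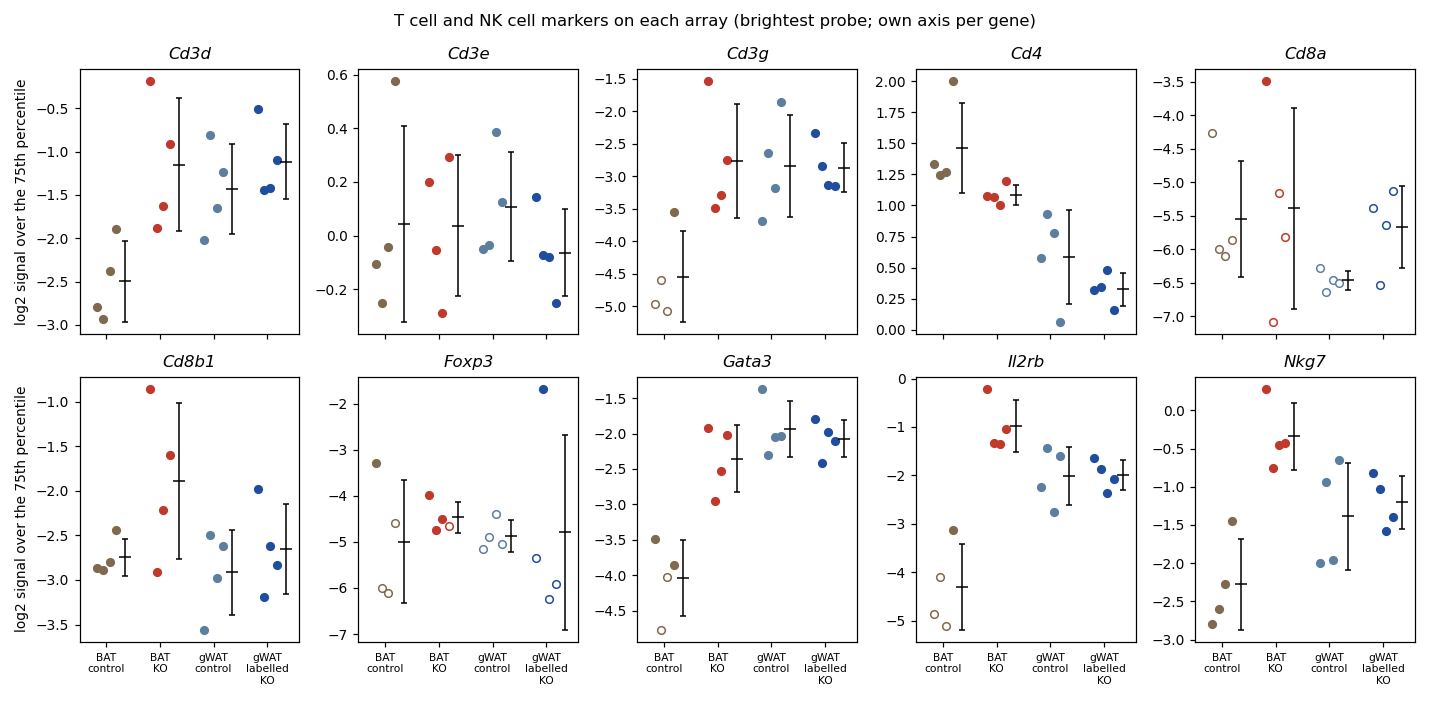
Level of each of the 10 members on each of the 16 arrays (log2 signal over the array's 75th percentile, brightest probe), with replicates 1 to 4 from left to right in each group, filled points well above background and open points not, and the group's mean and SD in black. The BAT KO arrays of Il2rb and Nkg7 lie above all BAT controls, while the groups of Cd3e overlap throughout.

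Cd3d encodes the delta chain of CD3. Its BAT control levels were -2.79, -2.93, -2.38 and -1.89, and the KO levels were -0.18, -1.88, -1.63 and -0.91. The lowest KO array lay just above control 4, the control on the same slide, and KO array 1 stood highest. The difference was 1.35 (SE 0.38, adjusted p = 0.0139), or 2.55-fold. Within that slide, with 1 control, it was 0.74, and with slide as a block the call was lost (adjusted p = 0.320).

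Cd3g encodes the gamma chain. Control levels were -4.96, -4.60, -5.07 and -3.54, of which only the last was well above background. KO levels were -1.53, -3.48, -3.28 and -2.76. The groups were again separated by a narrow gap between control 4 and KO array 2. Cd3g rose by 1.78 (SE 0.47, adjusted p = 0.0104), and within the shared slide the difference was 0.78, with an adjusted p of 0.351 under the slide block.

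Cd3e encodes the epsilon chain, which pairs with both of the others. Controls read -0.10, -0.25, -0.04 and 0.58 and KO arrays read 0.20, -0.06, -0.29 and 0.29. The groups overlapped, and the difference was -0.0073 (SE 0.20, adjusted p = 0.978). The other Cd3e probe ranged from -3.51 to -2.57 in controls and from -3.39 to -2.90 in KO arrays and differed by 0.017 (adjusted p = 0.951). Within the shared slide, with 1 control, Cd3e differed by -0.54 (adjusted p = 0.0872 under the slide block), in a setting in which Cd3d and Cd3g were not called either.

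Of the coreceptors, Cd4 was read by a bright probe and a dim one that ran in opposite directions in BAT. On the bright probe its control levels were 1.34, 1.24, 1.27 and 2.0 and its KO levels 1.07, 1.07, 1.0 and 1.20. Every KO array lay below every control, with control 4 far above the rest, and the difference of -0.38 did not pass the test over all genes (SE 0.17, adjusted p = 0.0873). The exact 2-sided permutation p was 0.0286, the smallest that 4 against 4 allows. Under the slide block the difference was -0.92, resting on control 4 as the only control on the shared slide. With control 4 left out, limma gave -0.20 (adjusted p = 0.0949).

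Cd8b1, the beta chain of CD8, had control levels of -2.87, -2.89, -2.79 and -2.44 and KO levels of -0.85, -2.91, -2.21 and -1.60. KO array 2 lay below all controls and the other KO arrays above them. The difference of 0.85 did not pass (SE 0.38, adjusted p = 0.0821), and within the shared slide it was 0.54. The alpha chain gene Cd8a was well above background on 1 of 16 arrays, BAT KO array 1, where it read -3.49, and its other probe on none. No fold is given for it.

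Gata3 encodes the transcription factor of type 2 helper T cells and group 2 innate lymphoid cells, and it is also known from preadipocytes. It stood at -3.49, -4.77, -4.03 and -3.86 in controls, with arrays 1 and 4 well above background, and at -1.93, -2.95, -2.53 and -2.03 in KO arrays. No KO array reached down to the controls. Gata3 rose by 1.68 (SE 0.31, adjusted p = 0.00151), or 3.20-fold, and by 1.5 within the shared slide. Foxp3, the regulatory T cell factor, was well above background on 1 of 4 controls and 3 of 4 KO arrays. Its levels ran from -6.10 to -3.28 in controls and from -4.74 to -3.99 in KO arrays, and it was not tested.

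Il2rb encodes the beta chain shared by the IL-2 and IL-15 receptors, which NK cells and CD8 T cells carry. Controls read -4.85, -4.10, -5.11 and -3.13, the last alone well above background, and KO arrays read -0.21, -1.33, -1.35 and -1.04. The lowest KO array lay far above the highest control. Against these controls, 3 of them not well above background, Il2rb rose by 3.32 (SE 0.44, adjusted p = 2.50e-04), or 9.96-fold, and by 2.15 within the shared slide. The other Il2rb probe gave 2.64 (adjusted p = 0.00239).

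Nkg7 encodes a granule membrane protein of NK cells and cytotoxic T cells. It was -2.80, -2.60, -2.27 and -1.45 in controls and 0.28, -0.75, -0.46 and -0.43 in KO arrays, well above background on all 8. The groups were apart, and control 4 was again the highest control. Nkg7 rose by 1.94 (SE 0.32, adjusted p = 8.07e-04), or 3.83-fold, and by 1.11 within the shared slide. KO array 1 was the highest of the KO arrays for Cd3d, Cd3g, Cd8b1, Gata3, Il2rb and Nkg7. The calls of Cd3d, Cd3g, Gata3, Il2rb and Nkg7 were kept when any 1 of the 8 BAT arrays was left out. With another background correction, normexp, the differences were 0.69 for Cd3d, 0.14 for Cd3g, 0.41 for Gata3, 1.51 for Il2rb and 1.26 for Nkg7, and the calls of Cd3d and Cd3g were lost. With quantile normalization added to normexp, all 5 calls were kept, with 0.93 for Cd3d (adjusted p = 0.0173) and 0.65 for Cd3g (adjusted p = 0.0224).

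**Figure D2:**
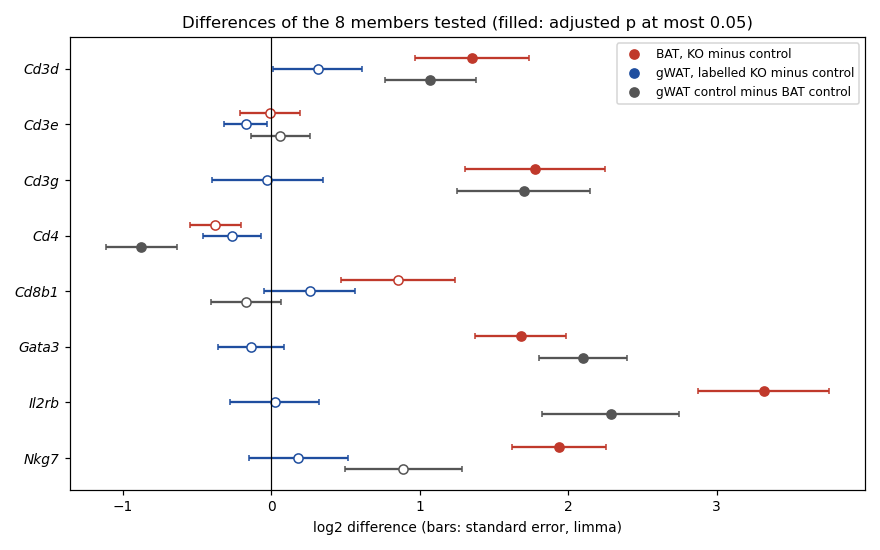
Differences in level (log2) of the 8 members tested, for BAT KO minus control, gWAT labelled KO minus control and gWAT control minus BAT control, with standard errors from limma and filled points for an adjusted p of at most 0.05. The BAT and tissue differences share the BAT controls, and Cd3d, Cd3g, Gata3 and Il2rb have filled points in both, while no gWAT point is filled.

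Genes that act beside these members were read from lists. Of 35 other T cell genes, 25 were tested in BAT, and 16 were higher and 2 lower, with a median difference of 1.38. Of the 14 that were well above background on all 8 BAT arrays, 7 were higher and 2 lower, with a median of 0.72. Cd2, an adhesion receptor of T and NK cells, rose by 2.42 (SE 0.29, adjusted p = 1.44e-04), Lck, the kinase that phosphorylates CD3, by 2.03 (SE 0.30, adjusted p = 4.97e-04), and Lcp2, an adaptor below it, by 2.77 (SE 0.24, adjusted p = 3.33e-05). Thy1 rose by 1.14, and Zap70 and Cd5, each well above background on 1 of 4 controls, by 1.99 and 1.97. Tbx21, the factor of type 1 helper T cells, differed by -0.03 (adjusted p = 0.878). With slide as a block, the comparison rests on the 1 control of the shared slide. In that setting 6 of these 25 genes were higher past the threshold, as were 3007 of all 14280 genes.

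Of 24 NK cell and cytotoxic genes, 12 were tested in BAT, and 10 were higher and none lower, with a median of 2.09. Only 5 of the 12 were well above background on all 8 BAT arrays, and of these 4 were higher, with a median of 0.67, while the other 7 entered the test through the KO arrays. Ccl5, a chemokine of activated T and NK cells, rose by 2.43 (SE 0.44, adjusted p = 0.00131), the granzyme gene Gzma by 2.06 (SE 0.34, adjusted p = 8.64e-04) and the perforin gene Prf1 by 0.67 (SE 0.23, adjusted p = 0.0316). Gzmb, which was well above background on 1 of 4 controls, rose by 1.55 (adjusted p = 0.0146). The NK receptor gene Ncr1 and the NK cell factor Eomes were each well above background on 1 of 16 arrays. With slide as a block, 6 of these 12 genes were higher past the threshold, as were 3007 of all 14280 genes.

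Il2rb works with the common gamma chain. Of 11 tested genes of gamma chain cytokines, receptors and kinases, 5 were higher in BAT and 3 lower. Il2rg, the gamma chain itself, rose by 1.23 (SE 0.14, adjusted p = 9.72e-05), as did Il21r by 1.88 and Il4ra by 1.74. Il15ra, which presents IL-15 to Il2rb, fell by 1.34 (SE 0.18, adjusted p = 2.96e-04). Il15, the ligand, differed by 0.14 (SE 0.29, adjusted p = 0.694). Gata3 also marks group 2 innate lymphoid cells, and of 4 tested genes of that list 2 were higher and 2 lower, with Il1rl1, the IL-33 receptor gene, up by 2.58 (adjusted p = 4.74e-05).

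Markers of some other cells moved in BAT with the T and NK cell genes. All 8 pan-leukocyte genes were tested and 7 were higher, and their summed signal, in units of the array's 75th percentile, was 7.72 to 12.6 in controls and 39.7 to 54.2 in KO arrays. Ptprc, the CD45 gene, rose by 2.82 (adjusted p = 1.77e-05). Of 11 macrophage markers 8 were higher and none lower, with sums of 28.8 to 40.6 and 93.0 to 136, and Adgre1 rose by 2.84 (adjusted p = 3.15e-05). All 6 mast cell markers tested were higher, with sums of 2.19 to 2.88 and 8.63 to 23.0. Sums of dendritic cell markers were lower, at 124 to 174 in controls and 108 to 120 in KO arrays. Neutrophil sums were 115 to 145 in controls and 86.6 to 94.2 in KO arrays. The part of all these markers in the members' differences was not tested.

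B cell markers gave no rise either. None of the 4 tested was higher and 1 was lower, the sums were 0.94 to 1.79 in controls and 1.16 to 1.38 in KO arrays, and Cd79a and Ms4a1 were well above background on no BAT control and on 1 of 4 KO arrays each. Of 4 lymph node stroma and vessel markers tested 2 were higher, neither of them well above background on all controls, with sums of 2.66 to 4.42 and 3.47 to 6.36. Cxcl13, which attracts B cells, rose by 2.86 (adjusted p = 0.00836), and Glycam1, an endothelial venule gene, differed by -0.39 (adjusted p = 0.0608). Fibroblast and preadipocyte markers were higher for 4 of 5, and all 8 adipocyte markers were lower, with sums of 2654 to 3155 in controls and 829 to 1176 in KO arrays. Adipoq fell by 2.01 (adjusted p = 3.59e-05). These shifts stand beside the members' values, and their part was not tested.

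**Figure D3:**
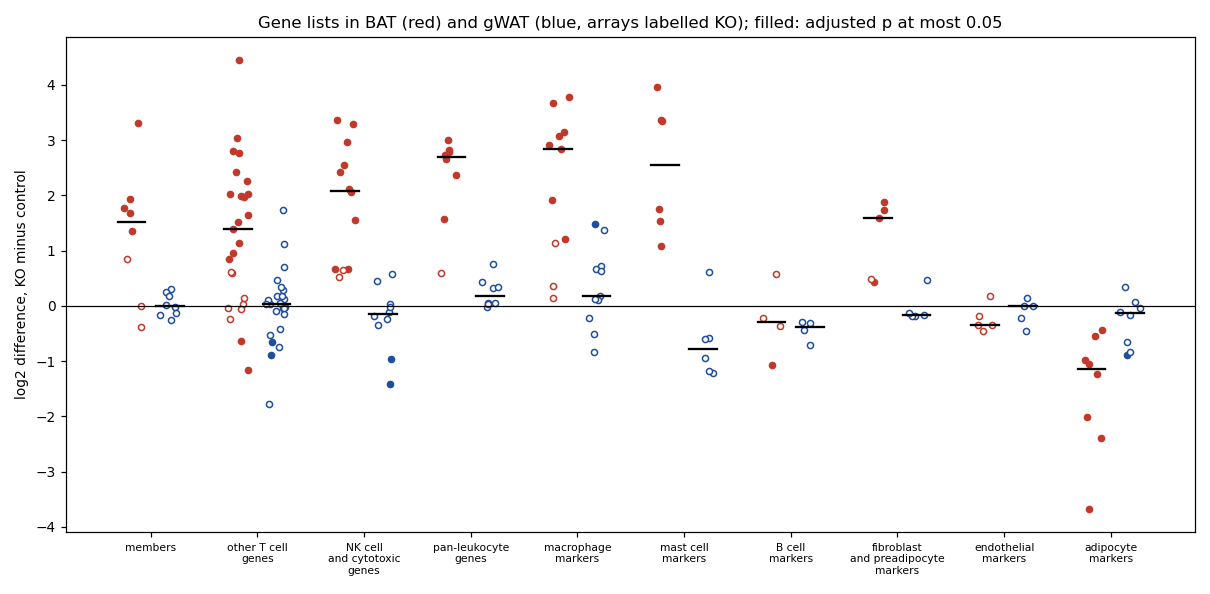
Differences in level (log2, KO minus control) of every tested gene of the members and 9 gene lists in BAT (red) and gWAT (blue, arrays labelled KO), filled where the adjusted p is at most 0.05, with the median as a black line. In BAT the medians of the members, the other T cell genes and the NK cell genes are 1.51, 1.38 and 2.09, and in gWAT they lie near 0. Genes that only the KO arrays measured well above background are included.

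The same question was put to gWAT, with the arrays labelled Adipo-Pgam1 KO. None of the 8 members tested passed limma's test, where 17.8% of 14149 genes were past the threshold. None had an unadjusted p under 0.05 in limma or in the methods' t-test, where 4917 and 4674 of all genes did. The groups overlapped for all 8, whereas 24.2% of all genes had groups that did not. The members' median difference was -0.0015 and that of all genes 0.05.

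Cd3d ran from -2.02 to -0.81 in gWAT controls and from -1.44 to -0.51 on the arrays labelled KO, and differed by 0.31 (SE 0.30, adjusted p = 0.493). Cd3g ran from -3.68 to -1.86 and from -3.15 to -2.34, and Cd3e from -0.05 to 0.39 and from -0.25 to 0.15, with differences of -0.03 and -0.17. Within the third slide, with 1 control, Cd3d, Cd3g and Cd3e differed by 0.12, -1.01 and -0.19. Labelled KO arrays of Cd3g lay inside the control range. Cd4 differed by -0.26 (SE 0.19, adjusted p = 0.370) and Cd8b1 by 0.26 (SE 0.30, adjusted p = 0.585).

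Gata3 controls read -1.37, -2.30, -2.05 and -2.03 and the arrays labelled KO -1.79, -2.41, -1.97 and -2.10, a difference of -0.13 (SE 0.22, adjusted p = 0.705). Il2rb read -2.25, -1.44, -2.76 and -1.60 against -1.65, -1.88, -2.36 and -2.07, a difference of 0.022 (SE 0.30, adjusted p = 0.967). Nkg7 read -2.0, -0.94, -1.96 and -0.65 against -0.82, -1.03, -1.57 and -1.39, a difference of 0.18 (SE 0.34, adjusted p = 0.740). Within the third slide these 3 genes differed by -0.04, -0.39 and -0.55. In each of them the arrays labelled KO fell within or close to the span of the controls. Foxp3 was well above background on 1 of the 8 gWAT arrays, labelled KO array 2 at -1.67, and Cd8a on none.

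Other T cell genes in gWAT had a median difference of 0.03, with 24 tested, none higher and 2 lower. Of all genes tested there, 9.95% were higher past the threshold and 7.87% lower. Cd247, the CD3 zeta chain, fell by 0.89 (SE 0.23, adjusted p = 0.0334) and Tbx21 by 0.65 (SE 0.17, adjusted p = 0.0340), while Cd2 differed by -0.74 and just missed the threshold (SE 0.22, adjusted p = 0.0501). Leaving out gWAT control 4, or the array labelled KO 4, left 1 gene of the list higher past the threshold. Of 10 NK cell and cytotoxic genes tested none was higher and 2 were lower, with Cd244a down by 0.96 (adjusted p = 0.0478). Il1rl1 fell by 0.80 (adjusted p = 0.0233). Pan-leukocyte sums were 27.4 to 34.0 in controls and 26.5 to 59.5 on the arrays labelled KO, and none of the 8 genes passed.

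The change in BAT was then set against the change in gWAT as an interaction over 14820 genes. The gWAT change minus the BAT change was -1.80 for Cd3g (SE 0.65, adjusted p = 0.0329), -1.81 for Gata3 (SE 0.40, adjusted p = 0.00204), -3.29 for Il2rb (SE 0.57, adjusted p = 3.61e-04) and -1.75 for Nkg7 (SE 0.50, adjusted p = 0.00943). Past the threshold and lower were thus 4 of 8 members, and 21.0% of all genes. Cd3g, Gata3 and Il2rb were not well above background on all BAT controls, so the count is a description. The changes of Cd3d, Cd8b1, Cd3e and Cd4 differed by -1.04, -0.60, -0.16 and 0.11 and did not pass, with adjusted p-values of 0.114, 0.367, 0.625 and 0.751. The Cd3g call was the least firm, since its adjusted p ran from 0.0124 to 0.0667 as single arrays were left out, and with slide as a block the only members to pass were Il2rb (-2.54, adjusted p = 0.0285) and Cd4 (1.18, adjusted p = 0.00551), while Gata3 (-1.54, adjusted p = 0.119), Nkg7 (-1.66, adjusted p = 0.0733) and Cd3g (-1.79, adjusted p = 0.141) did not. The slide-block value of Cd4 rests on control 4 of each tissue, the only control that shared a slide with the KO arrays of its tissue. In BAT that array stood far above the other controls for Cd4. Of the lists, 12 of 25 other T cell genes and 12 of 13 NK cell and cytotoxic genes had a change in gWAT below that in BAT past the threshold. Only 14 of the T cell genes and 5 of the NK cell and cytotoxic genes were well above background on all 8 BAT arrays. These counts too are therefore a description.

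Control tissues were compared to place these levels. Of the 8 members tested over 14304 genes, Cd3d, Cd3g, Gata3 and Il2rb were higher in gWAT than in BAT, where 29.2% of all genes were, and Cd4 was lower, where 35.5% were. Gata3, Il2rb and Cd4 did not overlap between tissues, as 60.8% of all genes did not. Cd3g, Gata3 and Il2rb entered this test only through the gWAT controls, being well above background on 1, 2 and 1 of the 4 BAT controls, so their count is a description. These values share the BAT controls with the BAT comparison above.

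Gata3 was higher in gWAT controls by 2.10 (SE 0.29, adjusted p = 3.03e-04) and Il2rb by 2.29 (SE 0.46, adjusted p = 0.00234). Cd3g was higher by 1.70 (SE 0.45, adjusted p = 0.00936) and Cd3d by 1.07 (SE 0.31, adjusted p = 0.0139), both with overlapping arrays. Nkg7 differed by 0.89 and did not pass (SE 0.39, adjusted p = 0.0754). On the bright probe, Cd4 levels were 0.58, 0.93, 0.78 and 0.06 in gWAT controls, all below those of BAT, and Cd4 differed by -0.87 (SE 0.24, adjusted p = 0.0107). With spike-in scaling that difference was -0.62 and did not pass (adjusted p = 0.117). The dimmer Cd4 probe was well above background on no control array of either tissue. Cd3e and Cd8b1 differed by 0.06 and -0.17. Within the shared slide, with the 1 BAT control there, Gata3 differed by 1.95, Il2rb by 0.98, Cd3g by 0.37, Cd3d by 0.40, Nkg7 by -0.19 and Cd4 by -1.24, and with slide as a block Gata3 and Cd4 kept their calls.

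Over all 4 groups, BAT controls held the lowest mean level of Cd3d, Cd3g, Gata3, Il2rb and Nkg7. The other 3 groups of Cd3d and of Cd3g overlapped one another. On its brightest probe, Il2rb on every BAT KO array, from -1.35 to -0.21, lay above every gWAT array of either label. On its other probe BAT KO arrays 3 and 4, at -2.10 and -2.08, lay below gWAT control 4 at -2.03. Nkg7 on the BAT KO arrays lay above every gWAT array, except that KO array 2 at -0.75 lay below gWAT control 4 at -0.65. For Gata3 the BAT KO mean of -2.36 lay below the gWAT means of -1.94 and -2.07, with overlapping arrays. On the bright Cd4 probe the order was reversed, with BAT controls highest at a mean of 1.46, BAT KO at 1.09, gWAT controls at 0.59 and the gWAT arrays labelled KO at 0.33. On the dimmer Cd4 probe BAT KO was highest at a mean of -4.87, with BAT controls at -5.85, gWAT controls at -5.94 and the gWAT arrays labelled KO at -5.85.

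Of the 10 members, 5 have another probe, so the brightest probe could be checked against another. The dimmer Cd3d probe differed by 2.41 in BAT (adjusted p = 0.00481) and by 1.01 in gWAT (adjusted p = 0.221), where the array labelled KO 4 read 0.34 and the others -1.30, -2.23 and -2.19. That array did not stand out on the brighter probe, at -1.09. The bright Cd4 probe was well above background on all 16 arrays, while the dimmer Cd4 probe was so on 3 of 16, all of them BAT KO arrays. It read -6.07 to -5.68 in BAT controls and -5.53 to -4.49 in BAT KO arrays, which did not overlap. The probes of Cd4 therefore disagree both on where the gene is detected and on its direction in BAT.

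**Figure D4:**
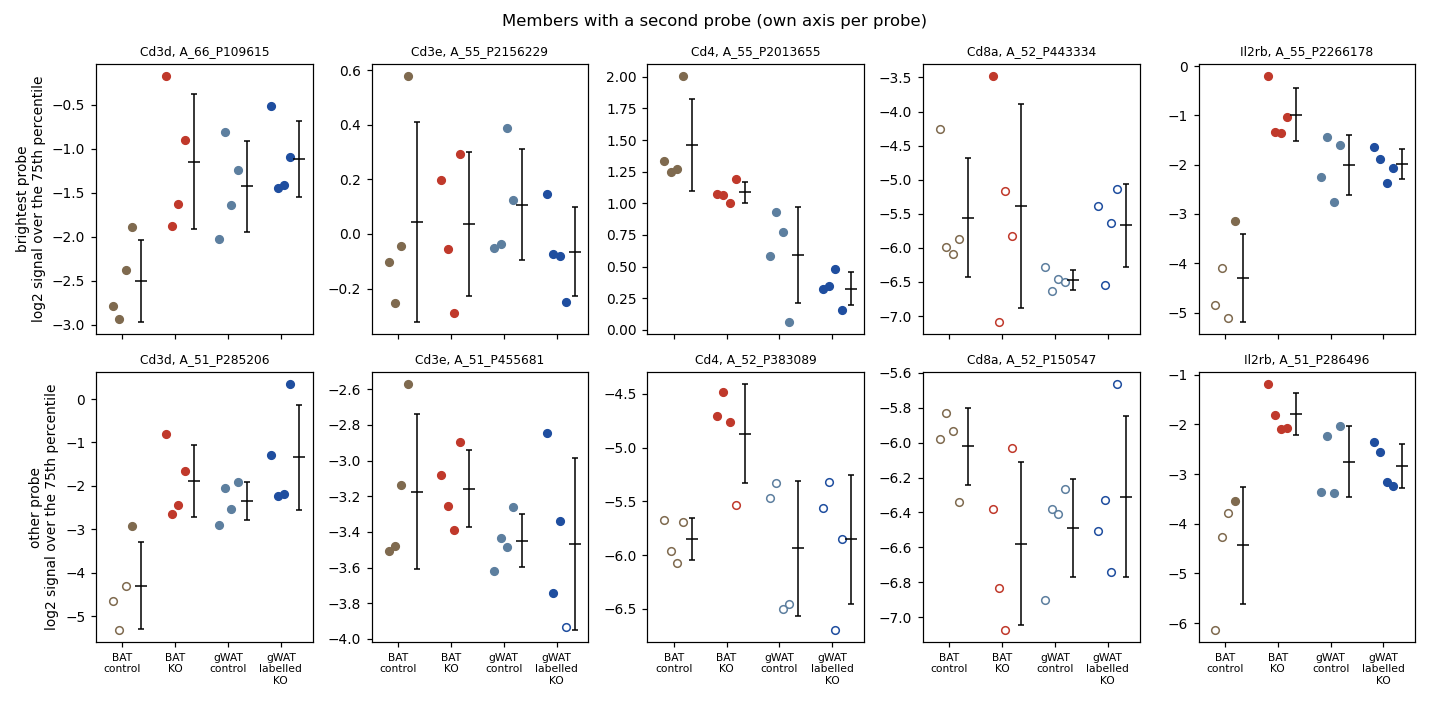
Levels (log2 signal over the array's 75th percentile) of the 5 members with a second probe, with the brightest probe above and the other below, filled points well above background, open points not, and mean and SD in black. Both Il2rb probes place the BAT KO arrays above the BAT controls, both Cd3e probes are flat in BAT, and the dimmer Cd4 probe is above background only on 3 BAT KO arrays.

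How the members varied together was described after the mean of each group was taken away, over 16 arrays that share slides. Cd3d ran closest to Cd8b1 (Pearson r = 0.92) and Cd3g to Nkg7 (r = 0.89). Cd3g and Il2rb had r = 0.85, Il2rb and Nkg7 r = 0.83, and Cd3d and Cd3g r = 0.82. Cd3e was looser with Cd3d (r = 0.57) and Cd3g (r = 0.58), and Gata3 had r = 0.02 with Il2rb. Among 12383 genes, those nearest to Cd3e were Gm12298 (r = 0.93), Cc2d1a (r = 0.93), Slc9a5 (r = 0.91), Pnpla3 (r = 0.90) and Lypd5 (r = 0.90), none of them on the T or NK cell lists. Cd3d was looked at in the same way after its values had been seen, and its nearest genes were Ms4a4b (r = 0.92), Cd8b1 (r = 0.92), Rgs2 (r = 0.88), Csnk1e (r = 0.87) and Serpinb9 (r = 0.87).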

How the data were processed

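The deposited scanner files held 1-colour intensity values from Agilent Feature Extraction 10.7.1.1, which subtracted the background, and the authors scaled them in GeneSpring GX. The deposited value table held the ratio of each processed signal to its array's 75th percentile, and it differed from the values used here by less than 0.01 on the log2 scale at the median of each array. No raw mean signal column was present, so the normexp alternative used the median signal. Control spots were left out, as were spots flagged as outliers unless every spot of a probe was flagged, and spots of a probe were averaged. Of 56605 probes, 35886 carried a RefSeq accession and 32994 of these (91.9%) reached 1 symbol. The 75th percentile was 401 to 917 in intensity and 50.0 to 62.2% of probes were well above background. In BAT that percentile was 401 to 451 in controls and 650 to 917 in KO arrays. Well above background there were 50.7 to 55.7% of probes in controls and 52.2 to 60.6% in KO arrays. The part of array brightness in the members' values was not tested. No spot was saturated. Depth does not apply to arrays, and 4 per group limit the precision.

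Differences were tested with limma 3.58.1 in R 4.3.3 on log2 levels, separately for each comparison, with Benjamini-Hochberg adjustment over all genes tested and a threshold of 0.05. A gene was tested where all 4 arrays of either group compared measured its brightest probe well above background. Scripts were tested on simulated data. Alternatives were other scalings, normexp, filters, probes, the slide or the replicate number as a block, the methods' t-test and each array left out. The slide block and the left-out arrays were added for the gene lists after the data had been seen. One gene of the B cell list is not reported here. Members and gene lists were chosen with earlier results of these data known. Every member was named, as were at most 3 genes of each other list per comparison, those with the largest change past the threshold among genes well above background on all arrays compared, and a fixed set of defining genes. The lists for neutrophils, dendritic cells, endothelium, skeletal muscle and epididymis are counted in the closing section. The labels give each array as tissue of a mouse and do not say whether BAT and gWAT of 1 number came from the same mouse. The numbers were not taken as pairs, since not every same-numbered pair of arrays deviated together. Correlations of deviations from the group means ran from -0.14 to 0.43 between control and KO arrays, and between BAT and gWAT they were 0.22, 0.16, 0.18 and -0.07 in controls and 0.11, 0.11, 0.29 and -0.19 in KO arrays, of which replicate 4 has the same age in both tissues.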

Additional observations from a re-analysis of the deposited data

Results flagged for a closer look

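Among 40 sets of 4 arrays, 1 for each member in each group, 2 (5%) held an array far from the other 3, and about 1 in 20 would by chance. Cd4 on BAT control 4 read 2.0, where the other controls read 1.24 to 1.34. Cd8a on BAT control 1 read -4.26, where the others read -6.10 to -5.87 and none of the 4 was well above background.

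The change of 4 members differed between the tissues by limma's interaction test, given as the change in gWAT, on arrays labelled KO, minus the change in BAT. It was -1.80 for Cd3g, -1.81 for Gata3, -3.29 for Il2rb and -1.75 for Nkg7. With slide as a block Il2rb kept its call (adjusted p = 0.0285) and Cd3g, Gata3 and Nkg7 did not (adjusted p = 0.141, 0.119 and 0.0733). The part of the Pgam1 level on the gWAT arrays was not tested.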

How the results depend on the processing

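The number of members past the threshold was 5 in BAT, 0 in gWAT, 4 for the interaction and 5 between control tissues. With normexp background these were 3, 0, 2 and 3, and with genes well above background on every array 2, 0, 1 and 2. With slide as a fixed block 4 passed in BAT, Gata3, Il2rb and Nkg7 higher and Cd4 lower, while Cd3d and Cd3g did not. That block left 2 for the interaction (Il2rb and Cd4) and 2 between tissues (Gata3 higher and Cd4 lower). These slide-block results rest on BAT control 4, the only BAT control not on the first slide, where Cd4 stood far above its level on the other controls. As single arrays were left out, the numbers of members ran from 5 to 6, 0 to 0, 3 to 4 and 5 to 6. Normexp ended the BAT calls of Cd3d (0.69, adjusted p = 0.0531) and Cd3g (0.14, adjusted p = 0.591). With quantile normalization added, 5 members passed in BAT. The cause was not tested, and normexp also used another signal column. The replicate block, for numbers not taken as pairs, gave 5, 0, 4 and 6, with Nkg7 between tissues now past the threshold (adjusted p = 0.0194), and not every array correlated best with its own number. Spike-in scaling moved the median of all genes in BAT from -0.08 to 0.47 and in gWAT from 0.05 to 0.48.

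Values that changed sign had not passed the test. Cd3e in BAT was 0.020 when centred on the median, 0.54 with spike-in scaling (adjusted p = 0.0454), 0.041 with normexp, 0.051 with normexp and quantile normalization, 0.017 on its other probe and -0.11 to 0.17 as arrays were left out. Cd4 in BAT was 0.17 with spike-in scaling. In gWAT, Cd3g was 0.11 with quantile normalization, 0.097 centred on the median, 0.41 with spike-ins, 0.0013 with normexp, 0.057 with both and -0.30 to 0.30 as arrays were left out. Spike-ins gave 0.26 for Cd3e, 0.17 for Cd4 and 0.30 for Gata3, which ran from -0.26 to 0.055 as arrays were left out. Il2rb was -0.085 with normexp, -0.019 with quantile normalization added, -0.081 on its other probe and -0.23 to 0.21 as arrays were left out, and Nkg7 ran from -0.022 to 0.43. The slide block in gWAT gave 0.26 for Cd4, -0.039 for Cd8b1, -0.39 for Il2rb and -0.55 for Nkg7. The interaction of Cd4 was -0.012 with normexp, -0.043 with quantile normalization added and -0.067 to 0.23 as arrays were left out, and that of Cd3e 0.35 with the slide block. Between tissues, Cd8b1 was 0.085 with spike-ins and -0.31 to 0.048 as arrays were left out, Cd3e was -0.28 on its other probe, -0.48 with the slide block, -0.012 with slide as a random block and -0.036 to 0.24 as arrays were left out, and Nkg7 was -0.19 with the slide block.

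Over all genes in gWAT, 2522 passed, against 1381 centred on the median, 5103 with spike-ins, 1138 with no filter on dim probes, 185 with the slide block, 1085 with the replicate block and 1620 by the methods' t-test, and 1078 to 3199 as arrays were left out. Of those that passed, 55.8% were higher in gWAT and 44.7% in BAT, which became 95.2% and 79.9% with spike-ins and 71.0% in gWAT centred on the median. For the interaction 7159 passed and 3263 with the slide block.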

Other observations

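Remaining lists are given as counts past the threshold. In BAT, dendritic cell markers were higher for 3 and lower for 2 of 5 tested, and neutrophil markers higher for none and lower for 1 of 3. Zbtb46, a dendritic cell factor, fell by 0.49 in BAT (adjusted p = 0.0244) and rose by 0.61 in gWAT (adjusted p = 0.0262). None of 5 endothelial markers passed in BAT. Skeletal muscle sums ran from 0.25 to 0.89 in BAT controls and from 0.78 to 74.3 in BAT KO arrays, and Acta1, skeletal muscle actin, rose by 3.11 (SE 1.05, adjusted p = 0.0292). Epididymis sums were at most 1.75 on any gWAT array.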
